A study of Mus musculus with 9 samples.

Results

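Complement is a set of plasma proteins, cell-surface inhibitors and receptors through which bacteria and dying cells are tagged, engulfed or lysed. Of 39 genes listed as complement components, regulators and receptors, 35 were measured here, among 17514 genes in all, because their probe sets were paired with exactly 1 symbol. The probe set of C4b is shared with C4a and gave no named value, and C3, Cfd and C7 were not analysed here. The livers came from c57Bl/6 mice that had been kept on chow. One group of 4 arrays carries the diet label Control, and the other group of 5 arrays the label for a high-fat diet (HFD) with 21% fat, from which 42% of the calories came. No other treatment, genotype, sex, age or time on the diet is given in the labels. The labels do not say what the Control group ate during the study. They also do not tie arrays to animals, and p-values therefore reflect only how far these arrays differ, which may be technical spread.

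Complement starts by several routes. In the classical route C1q, a protein of A, B and C chains, binds antibody or dying cells and activates the proteases C1r and C1s. In the lectin route mannose-binding lectins, ficolins and collectins bind sugars and activate the MASP proteases, and the alternative route runs through factor B, factor D and properdin. All routes meet at C3 and C5 and can end in a pore of C5b, C6, C7, C8 and C9 in the target membrane. Hepatocytes make most of the plasma components, whereas C1q is made mainly by macrophages, which in the liver are the Kupffer cells.

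Values are log2 differences of a probe set from its own baseline on each array, so that levels of different genes cannot be compared and no gene can be called present or absent. For the same reason the liver label could not be checked against levels of its defining genes. Differences are HFD minus control, with the standard error of a limma fit over all 17514 genes and Benjamini-Hochberg adjusted p-values, and a gene passed at an adjusted p under 0.05. In a whole-liver extract, fewer cells of a type and less RNA per cell cannot be told apart.

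Among the 35 measured complement genes 12 fell in the HFD group, none rose and 23 did not pass. The share of 34.3% stands beside 5.24% of all genes called in either direction, 1.87% lower and 3.37% higher. The members that fell were C1qa, C1qb, C1qc, Itgb2, C1ra, C2, Hc, C6, C8b, Cfp, Fcna and Cd55. Differences were negative in 31 of 35 members, with a median of -0.35 beside -0.016 over all genes. At an unadjusted p under 0.05, 19 of the 35 members passed, all of them lower, and 19.1% of all genes did in either direction. In 11 of 35 members, or 31.4%, every HFD array lay below every control array, which held for 4.2% of all genes. The opposite held for no member and for 5.62% of all genes, so that the groups were apart in either direction for 9.82% of all genes.

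The count of 12 rested on single arrays. It was 3 without control replicate 1 or control replicate 2, 4 without HFD replicate 3, 6 without control replicate 3, and 7 without HFD replicate 1 or HFD replicate 2. Without control replicate 4 or HFD replicate 4 it stayed at 12, and without HFD replicate 5 it was 11. C2, C6 and C8b passed with any 1 array left out. With 1 array left out the calls over all genes ranged from 385 to 1028.

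**Figure D1:**
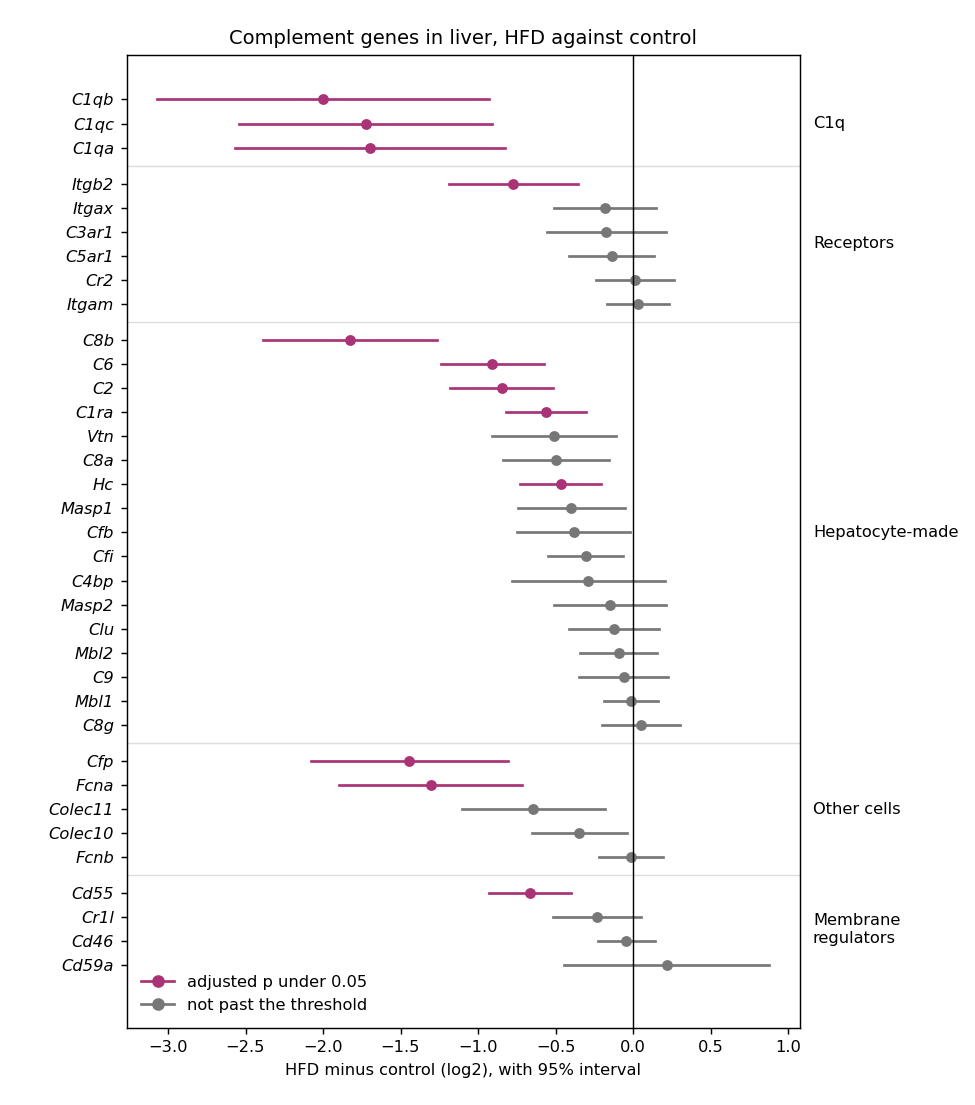
Difference between HFD and control on the log2 scale (x axis) for each of the 35 measured members (y axis), with its 95% interval from the limma fit, grouped by the cells that make the product or by role. The 12 members past the threshold all lie left of 0, from -1.998 for C1qb to -0.47 for Hc.

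Sequences upstream of members that fell together are shown for C1qb, C1qc and Cfp, which macrophages and other myeloid cells express, and for Hc and C8b, which hepatocytes express. They come from the RefSeq promoter table (GRCm38.p6), which held 27 of the 35 members and not C1qa, and each runs from 250 bases before to 50 bases after the annotated start, 5′ to 3′ on the gene's strand. Capitals mark GAGGAA, a core letter string bound by ETS factors such as the myeloid factor PU.1, or GTTAAT, a half-site string of the hepatocyte factor HNF1, each on either strand and with no overlap between them.
C1qb, chr4:136886151-136886450, strand -: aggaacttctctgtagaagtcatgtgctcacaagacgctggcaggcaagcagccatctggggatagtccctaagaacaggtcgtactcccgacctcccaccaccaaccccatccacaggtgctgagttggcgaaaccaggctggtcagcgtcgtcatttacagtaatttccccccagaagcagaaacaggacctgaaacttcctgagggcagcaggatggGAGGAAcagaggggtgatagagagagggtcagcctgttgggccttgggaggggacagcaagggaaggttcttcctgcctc
C1qc, chr4:136892865-136893164, strand -: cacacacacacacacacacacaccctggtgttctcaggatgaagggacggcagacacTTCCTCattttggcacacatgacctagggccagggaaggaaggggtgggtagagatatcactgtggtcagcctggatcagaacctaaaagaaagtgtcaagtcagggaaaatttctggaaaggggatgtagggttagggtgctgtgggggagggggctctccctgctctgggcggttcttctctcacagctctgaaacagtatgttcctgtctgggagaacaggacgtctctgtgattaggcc
Cfp, chrX:20931506-20931805, strand -: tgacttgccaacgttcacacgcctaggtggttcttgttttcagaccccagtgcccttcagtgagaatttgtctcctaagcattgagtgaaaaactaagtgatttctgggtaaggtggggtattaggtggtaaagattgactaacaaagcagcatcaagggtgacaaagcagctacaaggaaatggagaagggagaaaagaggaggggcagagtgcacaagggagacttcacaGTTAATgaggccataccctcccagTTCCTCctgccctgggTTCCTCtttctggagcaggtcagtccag
Hc, chr2:35061363-35061662, strand -: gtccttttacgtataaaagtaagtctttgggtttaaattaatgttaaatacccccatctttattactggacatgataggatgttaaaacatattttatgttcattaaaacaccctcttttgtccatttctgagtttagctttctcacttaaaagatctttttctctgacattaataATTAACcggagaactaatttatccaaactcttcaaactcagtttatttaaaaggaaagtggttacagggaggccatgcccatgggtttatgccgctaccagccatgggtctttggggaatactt
C8b, chr4:104766067-104766366, strand +: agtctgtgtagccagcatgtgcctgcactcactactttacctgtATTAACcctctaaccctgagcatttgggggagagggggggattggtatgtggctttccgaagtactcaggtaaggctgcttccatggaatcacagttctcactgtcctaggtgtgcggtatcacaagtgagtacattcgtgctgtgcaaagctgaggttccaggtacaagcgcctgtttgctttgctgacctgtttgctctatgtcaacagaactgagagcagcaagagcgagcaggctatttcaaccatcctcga
GAGGAA stood in the windows of 7 of the 27 members (C1qb, C1qc, C1ra, Cd59a, Cfp, Fcna and Itgam). It stood in 28.3% of all 32851 windows of the table, a share close to that among members. Members were counted by gene, with 28 windows among them, and the whole table was counted by window. GTTAAT stood in the windows of 9 members (C1ra, C4bp, C8a, C8b, Cd55, Cfp, Cr2, Hc and Vtn) and in 7.1% of all windows. Of the windows shown, Hc and C8b hold it and not GAGGAA, C1qb and C1qc hold GAGGAA and not GTTAAT, and Cfp holds both. The windows shown are a choice among the members that fell. Of the others that fell and had a window, C6 held neither string, C1ra both, Fcna only GAGGAA and Cd55 only GTTAAT. These strings were chosen after the expression values were seen, and a match is a description of the letters only.

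By the probe sets that stood for them, the genes of all C1q chains fell by more than 3-fold in the HFD group. C1qa, C1qb and C1qc encode the A, B and C chains and stand side by side on chromosome 4. C1qa stood at 1.45, 1.64, 1.26 and 0.25 in control replicates 1 to 4 and at -0.25, -0.89, -0.42, 0.46 and -1.63 in HFD replicates 1 to 5. C1qb stood at 1.40, 1.87, 1.27 and 0.39 in control and at -0.39, -0.76, -0.94, 0.56 and -2.30 in HFD. C1qc stood at 1.20, 1.39, 0.65 and 0.17 in control and at -0.54, -1.24, -0.90, 0.15 and -1.82 in HFD. Control replicate 4 was the lowest control and HFD replicate 4 the highest HFD array for each chain, and these arrays crossed for C1qa and C1qb, so that only C1qc separated the groups. C1qa fell by 1.70 ± 0.39 (3.24-fold, adjusted p = 0.0350). C1qb fell by 1.998 ± 0.48 (3.99-fold, adjusted p = 0.0415). Its other probe sets fell less, by 0.74 and 1.35, and with probe sets averaged the difference was -1.36. C1qc fell by 1.72 ± 0.37 (3.30-fold, adjusted p = 0.0250). C1qa and C1qb were not past the threshold without any 1 of control replicates 1, 2 and 3 or HFD replicates 1, 2 and 3, with adjusted p up to 0.115 and 0.133. C1qc was not past it without any 1 of the same arrays other than HFD replicate 1 (adjusted p up to 0.0888).

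Kupffer cell markers moved with C1q. Of 15 measured markers 8 fell, none rose and 14 had a negative difference, with a median of -1.25, and Timd4 (-1.16 ± 0.20) and Folr2 (-1.25 ± 0.22) had the lowest p. The mean of the 15 markers ran from 0.11 to 1.17 in control and from -1.20 to 0.13 in HFD, and the mean of the C1q genes from 0.27 to 1.63 and from -1.92 to 0.39. Ordered by either mean, the 9 arrays stood in the same order, with control replicate 2 highest, HFD replicate 4 above control replicate 4, and HFD replicate 5 lowest. The order was also the same with Vsig4, a marker that is itself a complement receptor, left out. The mean of 10 sinusoidal endothelial markers gave the same order of the 9 arrays as well. The part of either cell type in the fall of C1q was not tested.

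Among the 6 receptors of leukocytes for complement fragments only 1, Itgb2, passed. The mean of the 6 ran from 0.080 to 0.25 in control and from -0.14 to 0.037 in HFD, so that the groups did not overlap. That mean includes Itgb2, and the mean without it was not tested. Itgb2, the beta chain shared by complement receptors CR3 and CR4, stood at 0.83, 0.92, 0.26 and 0.078 in control and at -0.17, -0.52, -0.13, 0.017 and -0.46 in HFD. Every control array was above every HFD array, though control replicate 4 and HFD replicate 4 nearly met. Itgb2 fell by 0.77 ± 0.19 (1.71-fold, adjusted p = 0.0417). That call held without control replicate 4 or HFD replicate 4, and not without any 1 of the other arrays (adjusted p up to 0.127). Its alpha-chain partners are Itgam, of CR3, with a difference of 0.034 ± 0.091 (95% interval -0.17 to 0.23), and Itgax, of CR4, with -0.18 ± 0.15 (-0.51 to 0.15). C3ar1, the receptor of the C3a fragment, differed by -0.17 ± 0.17 (-0.56 to 0.21), and C5ar1, that of C5a, by -0.14 ± 0.12 (-0.41 to 0.14). Cr2, the receptor of B cells and follicular dendritic cells, differed by 0.013 ± 0.11 (-0.24 to 0.27). The median of the 6 receptors was -0.16. Of B cell markers 0 of 6 passed and of dendritic cell markers 0 of 6, with 2 and 0 of them at an unadjusted p under 0.05. Of 10 neutrophil markers S100a9 fell (-1.97 ± 0.45), with S100a8 next (-2.04 ± 0.56, not past the threshold). The other neutrophil markers differed by -0.24 to 0.054, and the median of the 10 was -0.12.

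**Figure D2:**
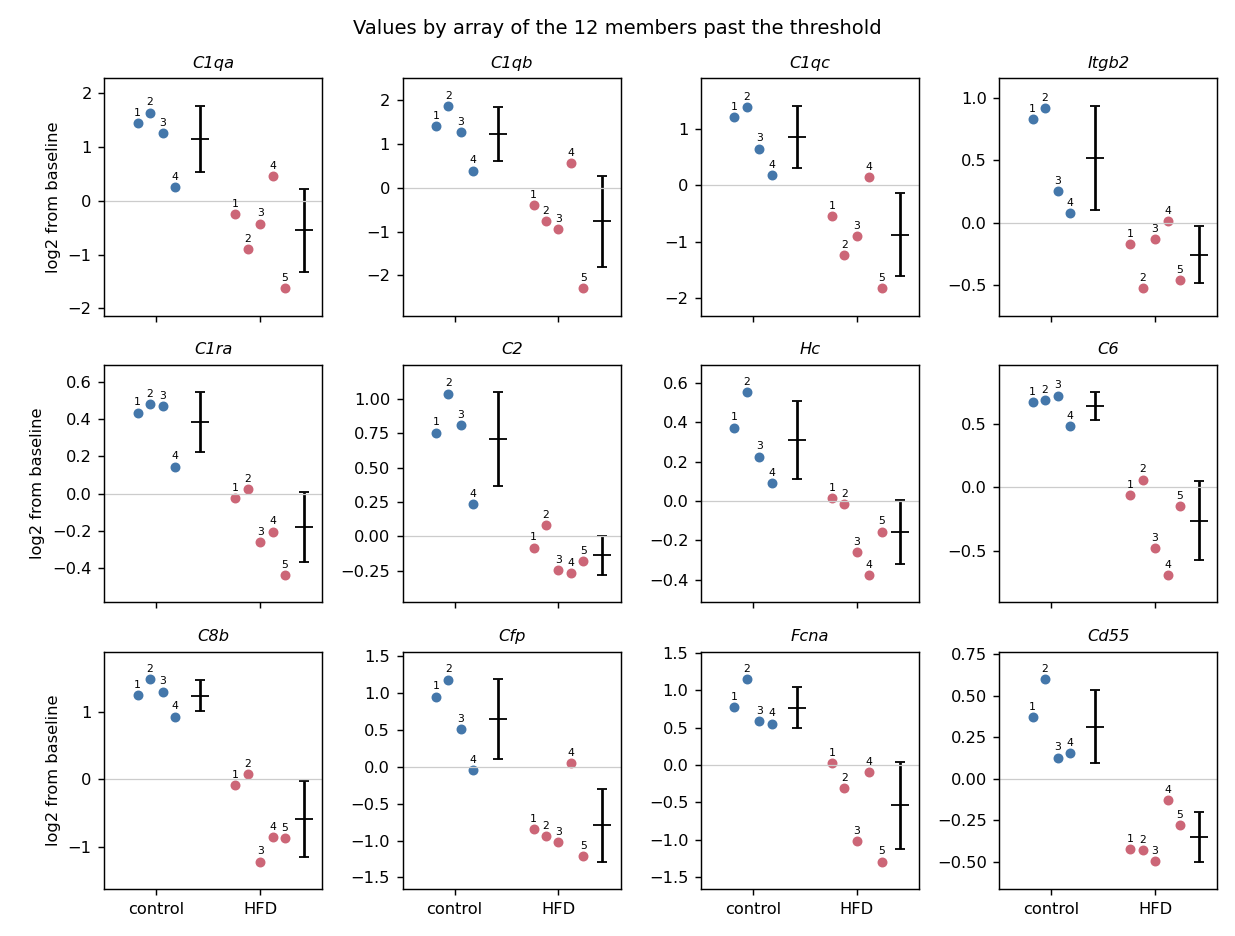
Values of the 12 members past the threshold on each array (y axis, log2 difference from the baseline of the probe set), with control arrays in blue, HFD arrays in red, the replicate name above each point, and the mean and SD of each group in black. HFD replicate 4 is the highest HFD array for the C1q genes, Itgb2, Cfp and Cd55, and the lowest for C2, Hc and C6.

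Hepatocyte-made components fell in 5 of 17 measured members, none rose, and the median difference was -0.38, or -0.25 without HFD replicate 5. C1q and the receptors together had 4 of 9 members lower and a median of -0.18, the fall being in all 3 C1q genes and in 1 of 6 receptors. The order of these medians was not the same in every alternative. It was -0.39 for the hepatocyte-made components and -0.48 for C1q and the receptors without the 25% of genes of smallest SD, and -0.20 and -0.24 without control replicate 1 and HFD replicate 5. Averaged per array, the hepatocyte-made components were at 0.25 ± 0.14 (SD, n = 4) on control arrays and at -0.19 ± 0.16 (SD, n = 5) on HFD arrays. Control replicates 2, 1 and 3 were the highest arrays and HFD replicate 5 the lowest, as for C1q, and the order in between differed. No HFD array reached the lowest control (0.050), and HFD replicate 4, the highest HFD array for C1q, stood at -0.23, below HFD replicates 1 and 2.

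Within the terminal pathway, C8b, C6 and Hc fell. C8b, the beta chain of C8, stood at 1.25, 1.49, 1.30 and 0.93 in control and at -0.083, 0.083, -1.22, -0.86 and -0.87 in HFD. Groups were far apart, and the HFD arrays split into 2 near the baseline and 3 well below it. The fall of 1.83 ± 0.25 (3.55-fold, adjusted p = 0.00410) was the largest among hepatocyte-made members, and its adjusted p stayed at or under 0.0183 in every alternative run. C6, which joins C5b at the start of the pore, stood at 0.67, 0.69, 0.73 and 0.48 in control and at -0.061, 0.061, -0.48, -0.69 and -0.15 in HFD. No array of C6 crossed between the groups, and the fall was 0.91 ± 0.15 (1.87-fold, adjusted p = 0.00826). Hc, the mouse gene of C5, stood at 0.37, 0.55, 0.23 and 0.090 in control and at 0.016, -0.016, -0.26, -0.38 and -0.16 in HFD. Its fall of 0.47 ± 0.12 (1.38-fold, adjusted p = 0.0477) kept its call with control replicate 4 left out and lost it with any 1 of the other arrays left out (adjusted p up to 0.147).

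The other pore genes did not pass. C8a, the alpha chain gene next to C8b on chromosome 4, stood at 0.30, 0.36, 0.36 and 0.054 in control and at -0.097, -0.031, -0.30, -0.74 and 0.031 in HFD. The groups did not overlap, and the difference of -0.50 ± 0.15 did not pass (adjusted p = 0.0990). C8g, the gamma chain, differed by 0.051 ± 0.11 (95% interval -0.20 to 0.30), and C9, which closes the pore, by -0.059 ± 0.13 (-0.35 to 0.23). The intervals of C8g and C9 do not reach the difference of C8b.

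Early components of the classical route also fell. C2, whose product supplies the protease of the classical C3 convertase, stood at 0.75, 1.04, 0.81 and 0.24 in control and at -0.083, 0.083, -0.24, -0.27 and -0.18 in HFD. Control replicate 4 was the lowest control and still above every HFD array. C2 fell by 0.85 ± 0.15 (1.80-fold, adjusted p = 0.0113), and its other probe sets fell by 0.77 and 0.58. C1ra, a protease that C1q activates, stood at 0.43, 0.48, 0.47 and 0.14 in control and at -0.024, 0.024, -0.26, -0.20 and -0.44 in HFD. Here too no array crossed, and the fall was 0.56 ± 0.12 (1.48-fold, adjusted p = 0.0218). The call of C1ra was lost without any 1 of control replicates 1, 2 and 3 or HFD replicate 3 (adjusted p up to 0.0786).

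The neighbour of C2 on chromosome 17 is Cfb, which encodes factor B of the alternative route. Cfb stood at 0.32, 0.32, 0.14 and -0.053 in control and at 0.0021, 0.035, -0.30, -0.0021 and -0.74 in HFD. The groups overlapped and the difference of -0.38 ± 0.16 did not pass (adjusted p = 0.237).

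None of the 4 hepatocyte-made genes of the lectin route passed. Masp1, whose gene also encodes MASP3, stood at 0.029, 0.032, 0.12 and 0.010 in control and at -0.51, -0.86, -0.15, -0.21 and -0.010 in HFD. Groups did not overlap by a narrow gap, and the difference was -0.40 ± 0.16 (adjusted p = 0.194). Its other 4 probe sets differed by -0.076 to -0.14, and their average with this one by -0.17. Masp2, the protease that cleaves C4, stood at 0.16, 0.049, -0.010 and -0.27 in control and at 0.010, 0.10, -0.35, 0.052 and -0.66 in HFD. Its arrays overlapped (-0.15 ± 0.16, adjusted p = 0.682), and its other probe set had a difference of 0.25 ± 0.096. The mannose-binding lectins Mbl1 (-0.013 ± 0.080) and Mbl2 (-0.092 ± 0.11) had 95% intervals of -0.19 to 0.16 and -0.34 to 0.16.

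Fluid-phase regulators did not pass in any of 4 members. Vtn, encoding vitronectin, which binds the forming pore, stood at 0.35, 0.37, 0.23 and -0.026 in control and at 0.026, 0.069, -0.49, -0.19 and -0.83 in HFD (difference -0.51 ± 0.18, adjusted p = 0.145). Cfi, the protease that cuts C3b and C4b, stood at 0.26, 0.28, 0.14 and 0.0030 in control and at 0.0031, -0.0030, -0.13, -0.098 and -0.45 in HFD (difference -0.31 ± 0.11, adjusted p = 0.152). Both pairs of groups overlapped through control replicate 4, and HFD replicate 5 was lowest in both. C4bp, the C4b-binding protein, differed by -0.29 ± 0.22 (-0.090 without HFD replicate 5), and Clu, encoding clusterin, by -0.12 ± 0.13, neither past the threshold.

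Most hepatocyte markers and acute phase genes did not pass. Of 8 hepatocyte markers Hnf4a, a transcription factor of hepatocyte identity, fell (-0.91 ± 0.19), none rose, Tat had the next lowest p (-0.79 ± 0.22, not past the threshold), and the median was -0.17. Of 18 genes of the acute phase response and its drivers, Orm1 (-0.70 ± 0.17) and Il1r1 (-1.69 ± 0.43) fell and none rose. Of these 18, 17 had a negative difference, and the median was -0.49. An unadjusted p under 0.05 was reached by 12 of the 18 acute phase genes and by 4 of the 8 hepatocyte markers. The mean of the hepatocyte markers ran from 0.076 to 0.41 in control and from -0.43 to 0.12 in HFD, and that of the acute phase list from 0.052 to 0.78 and from -0.45 to 0.16. Control replicate 2, the highest array for the components, was the lowest control for the hepatocyte markers, and HFD replicate 1 was the lowest array for these markers. The part of these genes in the fall of complement components was not tested.

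**Figure D3:**
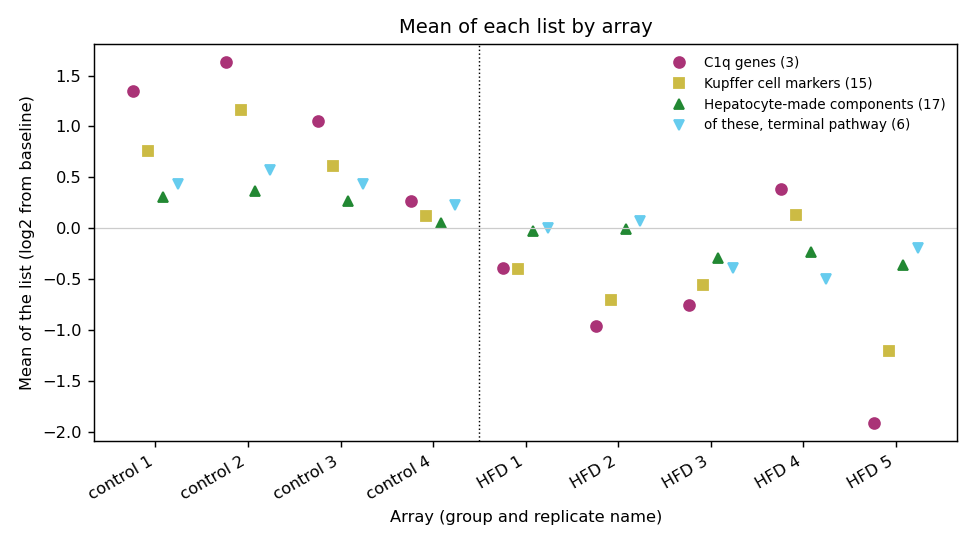
Mean log2 difference from baseline (y axis) on each array (x axis) for the 3 C1q genes, 15 Kupffer cell markers, 17 hepatocyte-made components and, within these, 6 terminal pathway genes. The means of C1q and of the Kupffer markers place the arrays in the same order, with HFD replicate 4 above control replicate 4. That of 10 sinusoidal endothelial markers (not plotted) gives this order too. The mean of the hepatocyte-made components does not overlap between the groups.

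Of the 5 measured components that other cells largely make, Cfp and Fcna fell. Cfp encodes properdin, which stabilizes the alternative C3 convertase and is made by myeloid cells. It stood at 0.95, 1.18, 0.51 and -0.045 in control and at -0.85, -0.94, -1.02, 0.045 and -1.21 in HFD. Control replicate 4 and HFD replicate 4 crossed, as for C1qa, and the other arrays of the groups lay well apart. Cfp fell by 1.44 ± 0.29 (2.72-fold, adjusted p = 0.0184), and its other probe set differed by -0.44 ± 0.26. Fcna encodes ficolin A, a sugar sensor of the lectin route that macrophages express. It stood at 0.78, 1.15, 0.59 and 0.56 in control and at 0.027, -0.31, -1.01, -0.096 and -1.29 in HFD, with a clear gap between the groups. Fcna fell by 1.31 ± 0.27 (2.47-fold, adjusted p = 0.0211). Neither Cfp nor Fcna passed without any 1 of control replicates 1 and 2 and HFD replicate 3 (adjusted p up to 0.0646 and 0.0764).

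Fcnb, the relative of Fcna and a ficolin of bone marrow myeloid cells, differed by -0.014 ± 0.093 (95% interval -0.22 to 0.19). The collectins Colec11 (-0.64 ± 0.21, adjusted p = 0.113) and Colec10 (-0.35 ± 0.14, adjusted p = 0.201), which stellate cells express, did not pass. Colec11 passed without HFD replicate 4 (adjusted p = 0.0381), and Colec10 without HFD replicate 5 (adjusted p = 0.0462). Of 10 stellate cell markers Rgs5 (1.87 ± 0.26) and Lrat (0.71 ± 0.17) rose and Reln fell, so that these markers moved in both directions. Of 10 sinusoidal endothelial markers 3 fell (Fcgr2b at -2.003 ± 0.44, Flt4 at -1.03 ± 0.25 and Stab1 at -0.82 ± 0.20), none rose, and their mean ran from 0.15 to 0.78 in control and from -1.31 to 0.24 in HFD. Of 7 genes listed as adipocyte markers Cidec rose (2.25 ± 0.38), and Car3 had the next lowest p (3.26 ± 1.20, not past the threshold). The others differed by -0.41 to 0.14, Adipoq, Lep and Retn among them by 0.026, 0.080 and 0.14. None of these others passed, and the median of the 7 was 0.080. Parts of these cells in the values of the members were not tested.

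Of the membrane regulators, which protect the body's own cells from complement, Cd55 fell. Cd55 encodes decay-accelerating factor, which dissociates C3 convertases, and stood at 0.37, 0.60, 0.13 and 0.15 in control and at -0.42, -0.43, -0.49, -0.13 and -0.28 in HFD. All control arrays were above 0 and all HFD arrays below it. The fall was 0.66 ± 0.12 (1.59-fold, adjusted p = 0.0121), with differences of -0.45 ± 0.15 and -0.57 ± 0.15 in its other probe sets, which did not pass on their own. The call was lost without any 1 of control replicates 1 and 2 and HFD replicate 1 (adjusted p up to 0.119). In these runs the probe set was chosen anew by its SD, and the one with the difference of -0.57 stood for the gene. Whether the probe set given first keeps its call there was not tested. Cr1l, which encodes the rodent regulator Crry, differed by -0.23 ± 0.13 and Cd46, a cofactor of factor I, by -0.043 ± 0.083, neither past the threshold.

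Cd59a, whose product blocks the closing of the pore, gave different answers by probe set. The probe set that stood for the gene was at 0.20, 0.059, -0.11 and -0.12 in control and at 0.74, 0.61, -0.059, 0.70 and -0.87 in HFD. The HFD arrays scattered on both sides of the controls, and the difference of 0.22 ± 0.30 did not pass (adjusted p = 0.758). The other probe set was at -0.13, -0.26, -0.39 and -0.22 in control and at 0.48, 0.41, 0.36, 0.32 and 0.13 in HFD. There the groups did not overlap, and with every probe set tested on its own it rose by 0.59 ± 0.090 (limma adjusted p = 0.00632). It was named after its values were seen. Of the 57 probe sets of the members, 16 fell and this 1 rose, and the 16 belonged to the same 12 genes as the main count. Over all 32801 probe sets with 1 symbol, 1312 were called in either direction in that fit. Of the 13 members with several probe sets, 11 had the same sign in all of them, the exceptions being Masp2 and Clu.

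**Figure D4:**
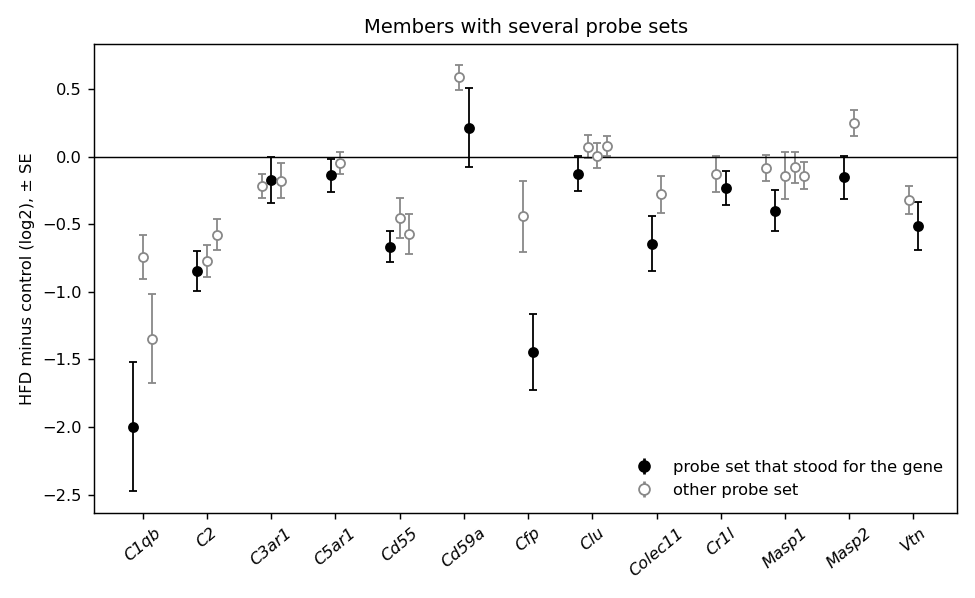
Difference between HFD and control on the log2 scale (y axis), with its standard error, for every probe set of the 13 members that have several (x axis), the filled points being those that stood for the gene. The C1qb and C2 probe sets are all below 0, while the unfilled Cd59a point lies at 0.59 and the filled one at 0.22.

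Complement genes outside the list were given by a further list, of which 14 of 25 genes were measured. Vsig4, the complement receptor of Kupffer cells that binds C3b, fell by 1.89 ± 0.38 (limma adjusted p = 0.0196). Susd4, encoding an inhibitor of complement, fell by 1.35 ± 0.18 (limma adjusted p = 0.00335). Cfhr2, a relative of factor H, rose by 0.39 ± 0.095 (limma adjusted p = 0.0432), and Cd81, whose product is a tetraspanin of the cell surface, rose by 0.34 ± 0.075 (limma adjusted p = 0.0276). The other 10 did not pass, and the median of the 14 was -0.14. C1s1, next to C1ra on chromosome 6 and encoding the other classical protease, differed by -0.12 ± 0.13 (95% interval -0.40 to 0.16). Serping1, the inhibitor of both proteases, differed by -0.34 ± 0.14 and did not pass.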

How the data were processed

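The authors summarised the Affymetrix arrays with RMA, quantile normalized them and moved, per the series' design text, each probe set to its median over all samples. The deposited values were read as log2 differences from that baseline, since RMA returns log2 values, although no log base is stated; no RMA version stands in the submitters' processing notes. Centring leaves no levels and no filter on low signal, and the number of arrays limits the precision.

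Of 41782 probe sets, after 60 control probe sets were left out, 32801 carried 1 symbol, 862 several and 8119 none, giving 17514 genes. Where a gene had several, the probe set with the largest SD over the 9 arrays stood for it, which favours larger differences. HFD (5 arrays) was compared with control (4 arrays) with limma 3.58.1 under R 4.3.3 (functions lmFit and eBayes, two-sided, Benjamini-Hochberg over all genes, no covariate), and the fit was tested on simulated data. Replicates were numbered in order of deposition.

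Members, role groups, marker lists and the rule for named genes were chosen with earlier results of these data known. By that rule, values on every array were given for members past the threshold and, in role groups with none, for up to 2 members of lowest p, and C8a and Cd59a were added after their values were seen. Of marker lists and other complement genes, those past the threshold or of lowest p were named. Lists are described by counts and medians, with no test. Alternatives were other scalings, probe set rules, filters, variance models, thresholds and left-out arrays.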

Additional observations from a re-analysis of the deposited data

Results flagged for a closer look

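In 5 of 74 checks (35 members and 2 list means, each in both groups) 1 array stood apart from the rest of its group, and chance gives about 5% of such groups. Cr2 stood at 0.45 in HFD replicate 1, with the other HFD arrays between -0.064 and 0.0088. C3ar1 stood at 0.43 in HFD replicate 3, with the others between -0.23 and -0.047. C1ra stood at 0.14 in control replicate 4, with the other controls between 0.43 and 0.48. Mbl1 stood at -0.16 in HFD replicate 4 and the others between -0.0037 and 0.044. Cr1l stood at -0.52 in HFD replicate 2 and the others between -0.086 and 0.027.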

How the results depend on the processing

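No paired analysis was possible because the labels give no replicate numbers. The 12 members remained lower after each array's median was subtracted, after a further quantile normalization, with probe sets averaged, without probe sets ending in _x_at or _s_at, with robust eBayes, with array weights and with every probe set tested on its own, and 11 of them without the 25% of genes of smallest SD. No member rose in any alternative run, other than the second probe set of Cd59a where every probe set was tested on its own. At an adjusted p under 0.01, 2 members were lower (C6 and C8b) of 245 genes called. With 1 array left out the members lower numbered 3 to 12 and all genes called 385 to 1028. Added after seeing the data, leaving out control replicate 1 with HFD replicate 5 gave 5 members lower and a median of -0.20 for the hepatocyte-made components, and leaving out control replicate 4 with HFD replicate 4 gave 12, of which 11 were the same genes. No scaling moved the median of all genes (-0.016) by over 0.1. The cause of these changes was not tested, other than that fewer arrays were used.

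Only members that were not past the threshold changed sign, none past it afterwards. With probe sets averaged Masp2 became 0.051 and Clu 0.010, and with array weights Fcnb became 0.019. Without control replicate 4 and HFD replicate 4, Itgam became -0.010, Mbl1 0.0031, Fcnb 0.080 and Cd46 0.0098. Without control replicate 1 and HFD replicate 5, Itgam became -0.0020, Mbl2 0.0038 and Masp2 0.24. With 1 array left out, differences ran from -0.082 to 0.046 for Cr2, -0.0043 to 0.12 for Itgam, -0.034 to 0.024 for Mbl1, -0.23 to 0.25 for Masp2, -0.0036 to 0.13 for C8g, -0.13 to 0.035 for C9 and -0.052 to 0.057 for Fcnb. In each run with arrays left out, the probe set that stood for a gene was chosen anew for every gene. For some members, among them Masp2, Cd55, C3ar1 and Cr1l, this changed the probe set in some of these runs.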
